A study of Mus musculus with 6 samples.

Results

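The lysyl oxidase family comprises the 5 genes Lox, Loxl1, Loxl2, Loxl3 and Loxl4, each taken by its symbol from a gene expression table of 33682 rows. Every symbol occurred on a single row, and all 5 genes passed the abundance filter of a mean of at least 1 FPKM, as 12341 genes did. FPKM, fragments scaled to gene length and library size, is a level that can be compared between genes of unequal length.

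RNA was sequenced from 6 samples of neonatal rat heart cells of wild-type genotype. They were kept in conditioned medium, the supernatant of bone marrow-derived mast cells that had been treated with the cytokine TNF-alpha. For 3 samples the mast cells were wild type (WT medium), and for 3 they lacked Alox5, the gene of 5-lipoxygenase, which starts leukotriene synthesis (Alox5KO medium). The TNF-alpha treatment of the mast cells was thus shared by all samples, and no sample without mast cell medium or with medium of untreated mast cells was analysed here. The labels do not give the time in medium. The labels do not say whether the replicates were separate cultures, so p-values reflect only the variation among these libraries, which could be technical.

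Lysyl oxidases are secreted, copper-dependent amine oxidases. They convert lysine and hydroxylysine side chains of collagens and elastin into reactive aldehydes, which then condense into the covalent crosslinks that give connective tissue its tensile strength and make a scar stiff. Lox and Loxl1 are made with a propeptide that is removed outside the cell, in the case of Lox by Bmp1 and related tolloid proteases, whereas Loxl2, Loxl3 and Loxl4 carry scavenger receptor domains ahead of the catalytic domain. The annotation in the deposited table lists the lysyl oxidase domain for 5 of 5 members and the scavenger receptor cysteine-rich domain for 3, Loxl2, Loxl3 and Loxl4.

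The sequenced cells are labelled cardiomyocytes, while the design text names fibroblasts. Fibroblast markers were abundant in every library, with a median of 339 to 839 FPKM over 12 markers, led by the type I collagen chain Col1a1. Of these 12 markers, 3 were called higher (Col3a1, Vim and Tcf21) and 3 lower (Dcn, Lum and Pdgfra), so their overlapping sums hold changes in both directions. Dcn, the proteoglycan decorin, had 2219 ± 711 FPKM under WT medium and 134 ± 66.3 under Alox5KO medium (SD, n = 3 each). The 11 cardiomyocyte markers had medians of 0.505 to 1.97 FPKM per library, and Myl2, a ventricular myosin light chain, was listed at 0 throughout. The summed cardiomyocyte markers ran from 28.02 to 51.01 FPKM under WT medium and from 91.6 to 115 with Alox5KO medium, with troponin T, Tnnt2, the most abundant. Of 6 tested, 3 were called higher, Tnnt2, Myh7 and Pln, of which Myh7 and Pln passed the filter only through Alox5KO medium. The called markers are named with their values known. Smooth muscle and pericyte markers summed to between 91.4 and 143 FPKM under WT medium and between 247 and 391 with Alox5KO medium, and 7 of 9 tested were called higher and 2 lower. Of these 7, Notch3, also named with its values known, passed the filter only through Alox5KO medium. Over all tested genes, 10.0% were called higher and 10.6% lower. The 10 leukocyte and mast cell markers summed to 41.0 to 57.7 and 18.7 to 27.5 FPKM, mostly from the mast cell carboxypeptidase Cpa3, while Fcer1a, Mcpt4 and Cd3e were at 0. The 7 endothelial markers summed to at most 7.03 FPKM, mostly Tek, the 5 Schwann cell markers to at most 7.90, mostly Mbp, and the 5 epicardial markers to at most 29.3, mostly Wt1. The groups did not overlap in the sums of cardiomyocyte, smooth muscle and leukocyte markers and overlapped in those of fibroblast, endothelial, Schwann cell and epicardial markers. Their part in the lysyl oxidase values was not tested. In bulk samples fewer cells of a type and less RNA per cell cannot be told apart. Libraries held 13284088 to 15766187 reads, recovered from the FPKM steps, and replicates of a group correlated at r = 0.977 to r = 0.986 across genes.

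With Alox5KO medium, transcripts of the founding enzyme Lox fell to 33.8% and those of Loxl4 to 20.4% of their mean level with WT medium, whereas Loxl1, Loxl2 and Loxl3 did not pass the test. Over all tested genes, limma with Benjamini-Hochberg (BH) adjustment at 0.05 called 20.7% changed, 10.0% higher and 10.6% lower, and in the family 2 of 5 members were called, both lower. The study asks which programs in heart fibroblasts respond to leukotrienes of activated mast cells. All fold changes are Alox5KO medium minus WT medium on the scale log2(FPKM + 1), which understates changes of genes of low abundance.

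**Figure D1:**
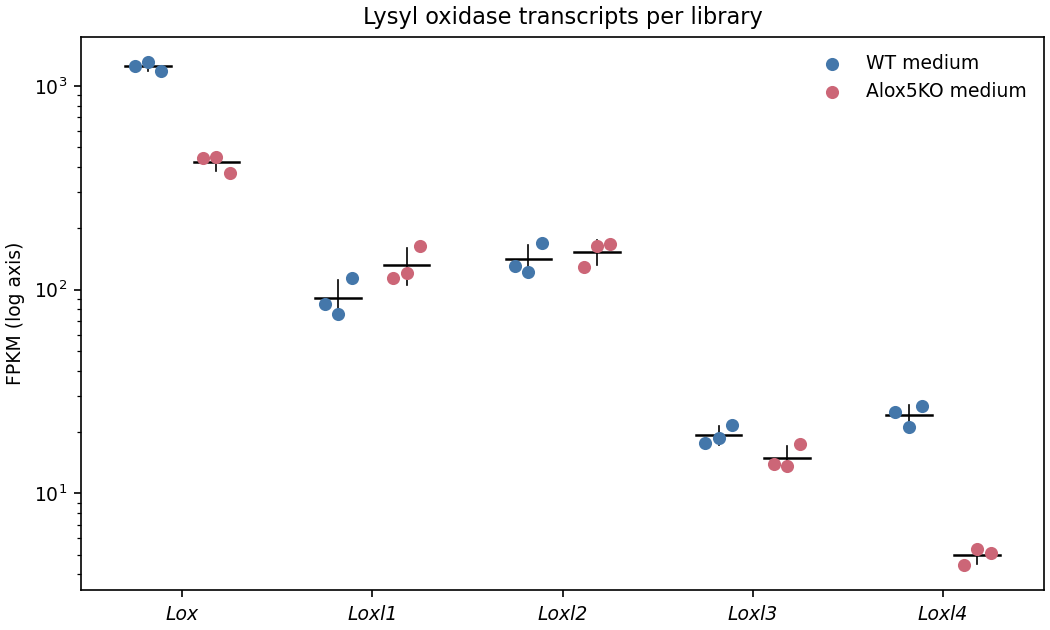
FPKM of the 5 lysyl oxidase genes in each library (log axis), with WT medium in blue and Alox5KO medium in red. Points are libraries, horizontal lines group means and vertical lines ± 1 SD (n = 3 per group). The groups lie apart for Lox and Loxl4 and overlap for Loxl2, and for Loxl1 they nearly touch at 113 FPKM.

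Lox, the enzyme that crosslinks fibrillar collagen and elastin, was the most abundant member in every library. It had 1248, 1312 and 1189 FPKM in WT-medium replicates 1 to 3 and 445, 450 and 375 FPKM in Alox5KO-medium replicates 1 to 3. All 3 WT-medium libraries were far above all 3 Alox5KO-medium libraries, and the replicates of each group lay close together, with coefficients of variation of 4.90% and 9.91%. The means were 1250 ± 61.3 and 423 ± 41.9 FPKM (SD, n = 3 each), a 2.95-fold lower level with Alox5KO medium. The limma estimate was -1.56 on the log2 scale (SE 0.11), with a 95% confidence interval of -1.82 to -1.31 (limma, BH adjusted p = 2.3e-05). It rested on 249972 reads with WT medium and 94717 with Alox5KO medium, so counting error was 0.606% or less per library. By mean level Lox ranked 65 among all rows of the table with WT medium and 182 with Alox5KO medium. The gene (ENSRNOG00000014426) is listed on the minus strand of chromosome 18 from 47500330 to 47577819, in the coordinates of the table, for which no rat build is stated in the labels or headers.

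Loxl4, a member with scavenger receptor domains, had the largest fold change of the family, from a much lower level. Its values were 25.0, 21.1 and 26.7 FPKM under WT medium and 4.44, 5.33 and 5.08 FPKM under Alox5KO medium. The lowest WT-medium library was still well above the highest Alox5KO-medium library. From 24.3 ± 2.85 to 4.95 ± 0.457 FPKM (SD, n = 3 each), the level was 4.91-fold lower with Alox5KO medium. The limma estimate was -2.08 on the log2 scale (SE 0.12), with a 95% confidence interval of -2.36 to -1.81 (limma, BH adjusted p = 6.2e-06). A pseudocount of 0.1 gave -2.27. Between 199 and 255 reads per library stood behind the Alox5KO-medium values, a counting error of 6.26% to 7.09%. Of all tested genes, 105 had a lower fold change than Loxl4 and 198 a lower fold change than Lox, and 3.31% were called with a log2 fold change of -1 or below. Loxl4 (ENSRNOG00000015727) is listed on the minus strand of chromosome 1 from 261835992 to 261853495.

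**Figure D2:**
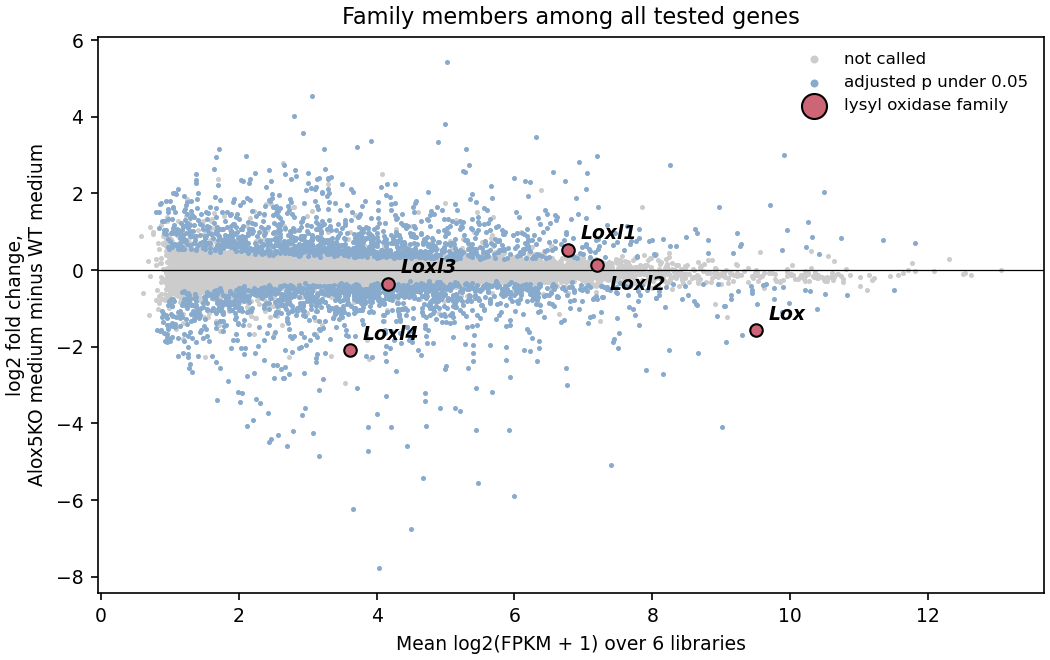
Log2 fold change (Alox5KO medium minus WT medium) against the mean log2(FPKM + 1) over 6 libraries for the 12341 tested genes, with called genes in blue, others in grey and the lysyl oxidase genes as named red points. Lox and Loxl4 sit at -1.56 and -2.08, and the other members lie between -0.35 and 0.53.

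Loxl1, which is known for its role in elastic fibre upkeep, was numerically higher with Alox5KO medium without passing the test. It had 84.7, 75.9 and 113.4 FPKM under WT medium and 113.5, 120 and 164 FPKM under Alox5KO medium. WT-medium replicate 3 was within counting error of Alox5KO-medium replicate 1, so the groups met without overlapping. The means were 91.4 ± 19.6 and 133 ± 27.4 FPKM (SD, n = 3 each), with a log2 fold change of 0.53 and a 95% confidence interval of 0.11 to 0.96 (limma, BH adjusted p = 0.082). Without WT-medium replicate 3 the log2 fold change was 0.70 and passed (limma, BH adjusted p = 0.0198). The gene (ENSRNOG00000008680) is listed on chromosome 8 from 63067300 to 63092009, minus strand.

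Loxl2, which acts on collagen IV of basement membranes as well as on fibrillar collagen, had overlapping groups. Its values were 131, 122 and 169 FPKM under WT medium and 129, 164 and 168 FPKM under Alox5KO medium. Libraries of both groups lay among the low and among the high values, and the lowest and the highest value were both from WT medium. Means of 141 ± 24.8 and 154 ± 21.7 FPKM (SD, n = 3 each) gave a log2 fold change of 0.13 with a 95% confidence interval of -0.21 to 0.47 (limma, BH adjusted p = 0.61). A change of the size seen for Lox or Loxl4 lies outside this interval. Loxl2 (ENSRNOG00000016758) is listed on the plus strand of chromosome 15 from 51303909 to 51365234.

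Loxl3, which is needed for palate and spine development in mice, had 17.7, 18.6 and 21.6 FPKM under WT medium and 13.9, 13.6 and 17.4 FPKM under Alox5KO medium. The highest Alox5KO-medium library lay just under the lowest WT-medium library, within counting error. Its means were 19.3 ± 2.03 and 14.9 ± 2.12 FPKM (SD, n = 3 each), with a log2 fold change of -0.35 and a 95% confidence interval of -0.64 to -0.07 (limma, BH adjusted p = 0.081). Without Alox5KO-medium replicate 3 it was -0.46 and passed (limma, BH adjusted p = 0.037). The gene (ENSRNOG00000061373) is listed on the plus strand of chromosome 4 from 113866804 to 113883477. Groups did not overlap for 4 of 5 members, Loxl2 being the exception, against 37.6% of all tested genes. For Loxl1 and Loxl3 the gap between the groups was within counting error, so only Lox and Loxl4 were clearly apart. Lox, Loxl3 and Loxl4 lay lower, as 18.8% of tested genes did, and Loxl1 lay higher, as another 18.8% did.

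**Figure D3:**
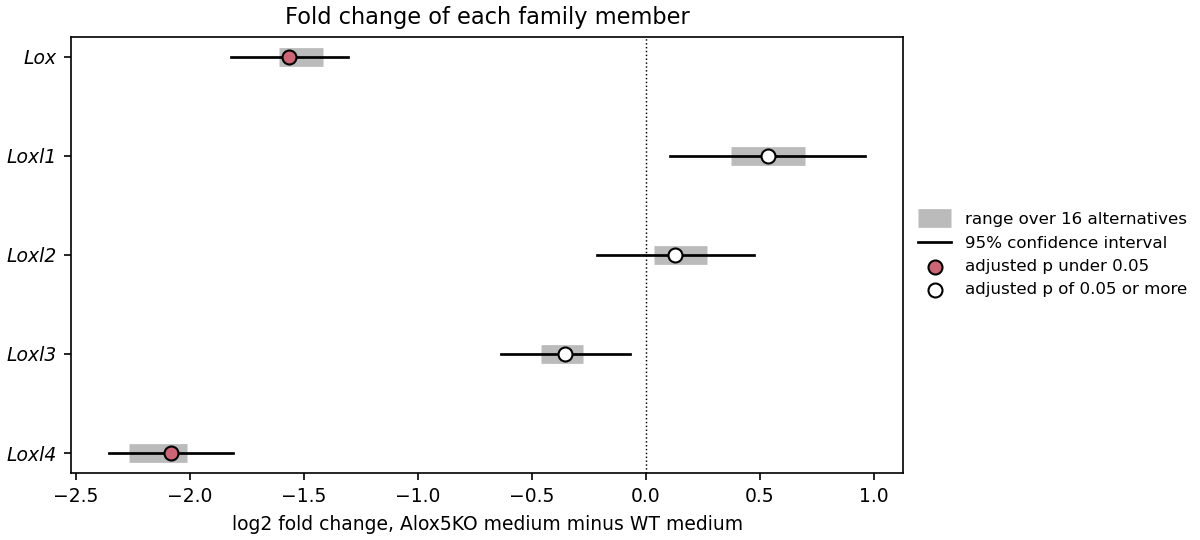
Log2 fold change (Alox5KO medium minus WT medium) of each member, with the 95% confidence interval as a black line and the range over 16 alternative fits as a grey bar. Filled points passed the test at an adjusted p under 0.05. Lox and Loxl4 passed in all 16 alternatives, and Loxl2 in 0.

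The order of the levels differed between the media at its lower end. With WT medium the order of the means was Lox, Loxl2, Loxl1, Loxl4 and Loxl3, and with Alox5KO medium Lox, Loxl2, Loxl1, Loxl3 and Loxl4. Loxl4 exceeded Loxl3 in 3 of 3 WT-medium libraries, by 1.13-fold to 1.41-fold, although the ranges of the genes overlapped. With Alox5KO medium Loxl3 exceeded Loxl4 in 3 of 3 libraries, by 2.55-fold to 3.43-fold. Loxl2 exceeded Loxl1 in all 6 libraries, by 1.49-fold to 1.61-fold with WT medium and by 1.02-fold to 1.36-fold with Alox5KO medium, where their ranges overlapped. Lox exceeded Loxl2, the next in order, by 7.05-fold to 10.8-fold with WT medium and by 2.23-fold to 3.46-fold with Alox5KO medium. The ratio between members differed between the media without overlap for all 10 pairs, each at an exact permutation p of 0.1 (two-sided, n = 3 per group). That is the smallest p that 3 against 3 samples can give, so none could pass 0.05. The 10 ratios are built from the same 5 values per library, so they are not separate results. No such count over other gene pairs is given here.

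Lox had a lower mean share of the family with Alox5KO medium. Its share of the summed FPKM of the 5 genes was 82.8%, 84.7% and 78.3% in WT-medium replicates 1 to 3 and 63.1%, 59.7% and 51.4% in Alox5KO-medium replicates 1 to 3. Every WT-medium library lay above every Alox5KO-medium library, and replicate 3 had the lowest share in each group. The mean share was 81.9% ± 3.30 and 58.1% ± 6.02 (SD, n = 3 each), a difference of -23.9 percentage points. Loxl2 went from 9.23% ± 1.68 to 21.0% ± 2.50 and Loxl1 from 6.00% ± 1.32 to 18.2% ± 3.72 (SD, n = 3 each). Loxl3 made up 1.27% ± 0.134 and 2.05% ± 0.300, and Loxl4 1.59% ± 0.204 and 0.678% ± 0.0419 (SD, n = 3 each). Each of the 5 shares had groups without overlap and an exact permutation p of 0.1 (two-sided, n = 3 per group), the smallest possible here. Shares sum to 100%, so a lower share of the leading member raises the others even where their levels did not pass the test, as for Loxl1, Loxl2 and Loxl3.

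**Figure D4:**
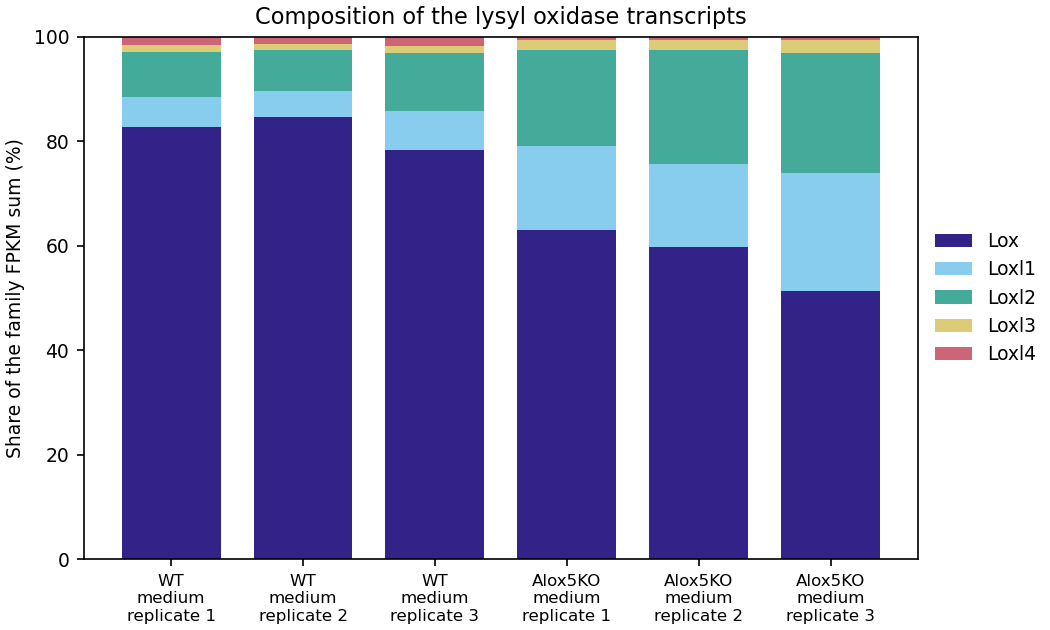
Share of each enzyme in the summed FPKM of the family (percent), 1 bar per library. Lox fills 78.3% to 84.7% of the bars of WT medium and 51.4% to 63.1% of those of Alox5KO medium, and Loxl1 and Loxl2 take up most of the remainder.

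Within the 4 genes other than Lox, Loxl4 had a lower and Loxl1 a higher mean share with Alox5KO medium. Among Loxl1 to Loxl4 the share of Loxl4 was 8.88% ± 0.795 with WT medium and 1.63% ± 0.174 with Alox5KO medium (SD, n = 3 each). The share of Loxl1 was 33.01% ± 1.203 and 43.2% ± 3.31, and that of Loxl3 7.07% ± 0.685 and 4.90% ± 0.423 (SD, n = 3 each). These 3 shares did not overlap between groups (exact permutation p = 0.1, two-sided, n = 3 per group). Loxl2 held 51.04% ± 0.286 and 50.3% ± 3.43 of the 4 genes, with overlapping groups (exact permutation p = 0.7, two-sided, n = 3 per group).

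The summed level of the family followed Lox. It was 1506, 1549 and 1520 FPKM under WT medium and 705, 753 and 729 FPKM under Alox5KO medium. The 3 values of each group lay within a narrow band, and the bands were far apart. The mean went from 1525 ± 22.0 to 729 ± 24.0 FPKM (SD, n = 3 each), to 47.8% of the WT-medium level. Lox alone was lower by 827 FPKM on average, which is 104% of the difference in the sum, because Loxl1 and Loxl2 were 41.3 and 12.9 FPKM higher. The sum of Loxl1 to Loxl4 was 276 ± 48.7 and 306 ± 47.1 FPKM (SD, n = 3 each), with overlapping groups.

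The family was also set against the transcripts of its fibrillar collagen substrates. The summed FPKM of the 9 fibrillar collagen genes was 6034 ± 549 with WT medium and 7822 ± 775 with Alox5KO medium (SD, n = 3 each). Per 1000 FPKM of fibrillar collagen, the family had 265, 270 and 228 FPKM under WT medium and 102, 92.5 and 86.9 FPKM under Alox5KO medium. WT-medium replicate 3 was the lowest of its group and still more than any Alox5KO-medium library. The mean ratio was 254 ± 22.8 and 93.7 ± 7.40 (SD, n = 3 each), and for Lox alone 209 ± 26.6 and 54.7 ± 9.72 (SD, n = 3 each). Of 7 tested fibrillar collagen genes 1 was called higher and 0 lower, or 14.3% against 20.7% of all tested genes. The median log2 change was 0.27 against -0.00082 over all tested genes. The called gene was Col3a1, type III collagen, with a log2 fold change of 0.84, and Col1a1, the most abundant, had 0.19 and did not pass. Without WT-medium replicate 3, 3 were called higher.

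Elastic fibres are the other main substrate. Of 13 tested genes of this list, 0 were called higher and 3 lower, or 23.1% against 20.7% of all tested genes, and the median log2 change was 0.06. Emilin1, an elastin-binding glycoprotein, went from 323 ± 22.4 to 144 ± 20.4 FPKM (SD, n = 3 each), a log2 fold change of -1.17 (limma, BH adjusted p = 2.2e-04). The fibulin Fbln1 also fell by 1.17, the microfibril protein Fbn1, chosen after its values were seen, fell by 0.81, and Fbln2, the most abundant gene of this list, stood at 0.06 and did not pass. Elastin itself, Eln, was chosen after its values were seen. It had 15.7 ± 4.55 and 17.1 ± 1.62 FPKM (SD, n = 3 each) and did not pass. Without WT-medium replicate 3, 1 elastic fibre gene was called higher.

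Of the proteases that can remove the Lox propeptide, Bmp1 was called lower, and the related tolloid protease Tll1, of low abundance, was called higher. Bmp1, which also removes the C-terminal propeptide of procollagen, had 70.1, 65.1 and 65.6 FPKM under WT medium and 32.0, 29.5 and 34.2 FPKM under Alox5KO medium. The groups were far apart, at a log2 estimate of -1.05 (SE 0.09) (limma, BH adjusted p = 8.2e-05). In the list of propeptide proteases and matrix partners of lysyl oxidases 3 of 12 tested genes rose and 5 fell. That is 66.7% called against 20.7% of all tested genes, and the median log2 change was -0.34. PCOLCE2, an enhancer of procollagen cleavage, fell by 0.65 on the log2 scale, from a mean of 12.6 to 7.66 FPKM. The related gene Pcolce, picked with its values known, was far more abundant, at mean levels of 402 and 438 FPKM. It did not pass, with a log2 fold change of 0.12 (limma, BH adjusted p = 0.47). The thrombospondins Thbs1 and Thbs2 rose by 1.70 and 0.83 in log2 units. The other called genes of the list are named with their values known. Fibronectin, Fn1, which binds Lox, had a log2 fold change of -1.095, and the small leucine-rich proteoglycans Dcn and Lum had -4.10 and -2.10. Tll1 rose by 0.78, from 2.33 ± 0.900 to 4.62 ± 0.597 FPKM (SD, n = 3 each; limma, BH adjusted p = 0.021). This was the largest adjusted p of the 3 genes called higher. In the list 2 genes were called higher without WT-medium replicate 1 or 2, or without Alox5KO-medium replicate 1 or 3. The count was also 2 without the abundance filter and with a mean of at least 5 FPKM. Sparc, the most abundant gene of the list, had 4363 ± 78.4 and 4314 ± 428 FPKM (SD, n = 3 each) and did not pass.

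Genes that handle copper, the cofactor of lysyl oxidases, were close to even between the media. Of 11 tested, 1 was called lower and 0 higher, or 9.09% against 20.7% of all tested genes, and the median log2 change was -0.0027. The called gene was the metallothionein Mt2A, which binds copper and zinc, at -0.56 (limma, BH adjusted p = 0.048). This call did not hold when any of 4 libraries was left out (replicates 1 and 2 of WT medium, replicates 2 and 3 of Alox5KO medium).

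In a list made up mostly of other enzymes that crosslink matrix or modify lysine, 3 of 11 tested genes fell and 1 rose. That is 36.4% called against 20.7% of all tested genes, and the median log2 change was -0.29. Transglutaminase 2, Tgm2, which joins glutamine to lysine in matrix proteins, had 329, 291 and 293 FPKM under WT medium and 33.1, 43.7 and 35.9 FPKM under Alox5KO medium. Its groups were separated by a wide gap, and the estimate was -2.99 (SE 0.12) in log2 units (limma, BH adjusted p = 1.1e-06). P4hb, the most abundant gene of the list, fell by 0.76. It is a subunit of prolyl 4-hydroxylase and not itself an enzyme of crosslinking or lysine modification. The lysyl hydroxylase Plod2, chosen after its values were seen, fell by 0.41 (limma, BH adjusted p = 0.030), the largest adjusted p of the 3. In the list 2 genes were called lower without WT-medium replicate 1 or 2, without Alox5KO-medium replicate 2, or with quantile normalization. Aoc3, a copper amine oxidase of the cell surface that belongs to another enzyme family, had 0.630 ± 0.188 and 5.12 ± 0.739 FPKM (SD, n = 3 each). It was the only gene of the list called higher, and it passed the abundance filter only through its Alox5KO-medium level, so its call follows in part from the filter.

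Known regulators of lysyl oxidase genes changed in both directions. Of 22 tested, 9 rose and 4 fell, or 59.1% called against 20.7% of all tested genes, and the median log2 change was 0.20. The TGF-beta ligand Tgfb3 rose by 3.48, the transcription factor Srf by 0.86, and Ccn2, a matricellular TGF-beta target and the most abundant of the list, by 1.26. Hif1a, the oxygen-regulated transcription factor whose targets include Lox, fell by 0.70 on the log2 scale, from 103 ± 6.23 to 63.7 ± 11.6 FPKM (SD, n = 3 each; limma, BH adjusted p = 0.0067). The AP-1 subunit Fosl2 fell by 1.15. In a list of other hypoxia targets 13 of 18 tested genes fell and 0 rose. That is 72.2% called lower, against 10.6% of all tested genes, and the median log2 change was -0.63. The prolyl hydroxylase Egln3, which marks HIF proteins for degradation, fell by 2.16, Ndrg1 fell by 2.15, and the glycolytic enzyme Eno1, the most abundant, fell by 0.63. Of the 13, Pfkfb4, named with its values known, passed the abundance filter only through its WT-medium level. Leaving out 1 library at a time gave 10 to 13 falls in this list. Whether Hif1a or any other regulator has a part in the level of Lox was not tested.

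**Figure D5:**
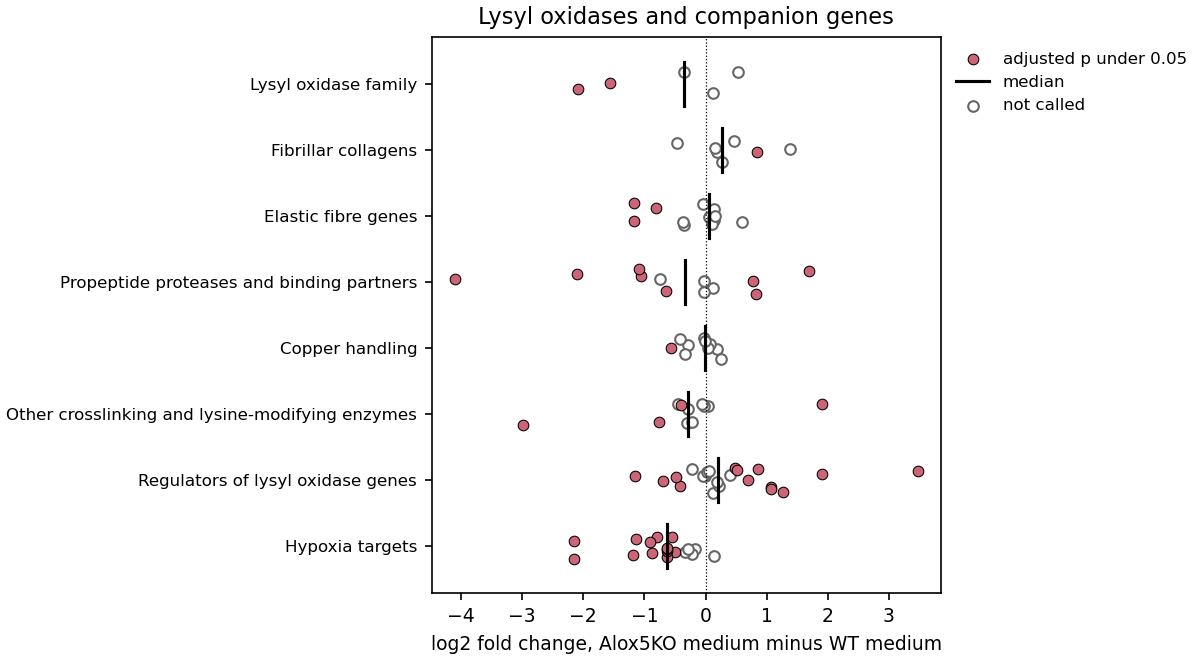
Log2 fold change (Alox5KO medium minus WT medium) of the tested genes of the family and of 7 companion lists, with genes past the threshold filled, others open, and list medians as black bars. The hypoxia targets have a median of -0.63 and the fibrillar collagens of 0.27.

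The genes most like each member over the 6 libraries differed between members. Likeness was the Pearson correlation of log2(FPKM + 1) over 10683 tested genes with a symbol. It is a description over 6 points that fall into 2 groups, so for Lox and Loxl4 it mainly follows the difference between the media. For Lox the leading genes were Fam117b (r = 0.9994), the hyaluronan receptor Cd44 (r = 0.9994) and the protease inhibitor Tfpi2 (r = 0.9993), and 92 genes had r above 0.99. A high r does not mean a change of like size. Fam117b had 8.12 ± 0.111 and 6.49 ± 0.105 FPKM (SD, n = 3 each) and did not pass the test. For Loxl4 the leading genes were the prostacyclin receptor Ptgir (r = 0.9997), the cytokine Lif (r = 0.9987) and the NF-kB regulator Tnip1 (r = 0.9984), with 82 genes above 0.99. Loxl2, whose values did not separate the media, was closest to the basement membrane collagen Col4a1 (r = 0.9977), followed by Cdyl (r = 0.9893) and Prrc2a (r = 0.9833). Col4a1 had 574 ± 147 and 633 ± 127 FPKM (SD, n = 3 each) and did not pass the test. Loxl1 was closest to Lrig3 (r = 0.998), Pheta2 (r = 0.994) and Shkbp1 (r = 0.991). Loxl3 was closest to Adamts14 (r = 0.994), a protease of procollagen propeptides, then Pskh1 (r = 0.993) and Cnot11 (r = 0.9898).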

How the data were processed

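The authors deposited FPKM values with 1 column per sample, gene length and position, per the file headers. RNA was extracted with TRIzol and libraries made with a NEBNext Ultra kit, per the labels' protocols. Per the submitters' processing notes, the tools were featureCounts 1.5.0-p3, HISAT2 2.0.5, DESeq2 1.20.0, CASAVA 1.8 and fastp, and the build mm10, with no role named for any. The labels name mouse, but 32883 of 33682 rows carry rat Ensembl identifiers and 0 carry mouse ones. The rat build and any use of strand are not given in the sources used here.

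Columns were matched to samples by group and replicate number in the sample titles. FPKM times gene length gave whole multiples of a step per column for 100% of values up to 1000 reads, within 0.05 reads. Per-library reads and counting errors come from this step and cover counting error only. In a gene 1 kilobase long, 3 reads equal 0.185 to 0.228 FPKM.

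Rows averaging 1 FPKM or more were taken to log2(FPKM + 1) and fitted in limma 3.58.1 (R 4.3.3; robust prior and mean-variance trend; two-sided). Benjamini-Hochberg adjustment ran over all 12341 genes, and calls are at 0.05. Exact permutation tests used scipy 1.17.1. The fit was also run on simulated data with the same spread for all genes and few changed genes. Those settings differ from the data here, so that run does not show how reliable these calls are. Replicates all differed beyond sampling noise, with a chi-square per degree of freedom of 6.72 or more.

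The family members and the companion lists were chosen with earlier results of these data known. Named genes are the members, from each list the 2 called genes of smallest p in each direction and the most abundant gene, the 3 genes most correlated with each member, and the most abundant of each marker list. Others are said to be chosen after their values were seen. Marker genes listed at 0 throughout are named as part of the cell type check. Identifiers of clones or unnamed loci did not count as symbols. The alternatives were other pseudocounts, filters, scalings and limma settings, voom in limma on the recovered reads, a replicate block, and each library left out in turn. The reference sequences at hand are of mouse, so no sequence of these rat genes is printed.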

Additional observations from a re-analysis of the deposited data

How the results depend on the processing

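Lox and Loxl4 kept their direction and their call in all 16 alternative fits, with log2 fold changes of -1.61 to -1.42 and -2.27 to -2.01 and adjusted p of at most 3.3e-04 and 1.8e-04 (limma, Benjamini-Hochberg). Loxl2 was called in 0 of 16, at 0.03 to 0.27. Deviations of same-numbered samples from their group means correlated at -0.10, 0.105 and 0.17. Those of differently numbered samples correlated at -0.19 to 0.10. With 3 samples per group these values cannot settle whether samples were paired by number. With the replicate block Loxl1 (0.53, adjusted p = 0.0063) and Loxl3 (-0.35, adjusted p = 0.039) passed (limma, Benjamini-Hochberg), 1 fibrillar collagen and 0 copper genes were called lower, and 1277 genes were called higher and 1375 lower. With 1 library left out, Loxl1 ran from 0.37 to 0.70 and Loxl3 from -0.46 to -0.27, both minima without Alox5KO-medium replicate 3. Genes called higher ran from 791 to 1226 and lower from 862 to 1325, both of these minima without WT-medium replicate 1. In the same fits fibrillar collagens called higher ran from 1 to 3 and lower from 0 to 1, elastic fibre genes called higher from 0 to 1, and copper genes called lower from 0 to 1. The count of copper genes called lower was 0 without the filter, with TPM scaling, quantile normalization, median centring, or without trend and robust prior. With a mean of at least 5 FPKM, 0 genes of the crosslinking and lysine-modifying list were called higher, because Aoc3 was not tested.

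In reads without length scaling the share of Lox differed by -17.2 percentage points, Loxl2 by 7.57 and Loxl4 by -0.55, the log2 ratio of the family sum was -1.23 and that per fibrillar collagen -1.61, against -1.07 and -1.44 in FPKM. With TPM scaling the family sum had -1.004. In a sum without Lox the shares differed by -0.76 points for Loxl2, -2.17 for Loxl3 and -7.25 for Loxl4, so that Loxl2 and Loxl3 changed sign. With 3 samples per group no exact test could pass 0.05.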

Other observations

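The surroundings of the family genes bear on how far their values can be taken as their own, since it is not given whether counting used strand. The span of Lox overlaps Znf474 on the opposite strand, which had 0.0175 and 0.0159 FPKM in the means of WT and Alox5KO medium. Loxl3 lies 193 bases from Htra2 and 130 bases from Dok1, both on the opposite strand. Htra2, a mitochondrial protease, averaged 35.4 ± 2.45 FPKM under WT medium and 20.3 ± 0.900 under Alox5KO medium (SD, n = 3 each), or -0.77 in log2 units (limma, BH adjusted p = 5.3e-04). Dok1, an adaptor of tyrosine kinase signalling, stood at -0.39 in log2 units (limma, BH adjusted p = 0.046). Their part in the value of Loxl3 was not tested. A miRNA locus is listed within the span of Loxl2, on its strand, at 0.987 and 1.22 FPKM in the means. No listed gene overlaps Loxl1, Loxl3 or Loxl4. These neighbours were chosen by position, all genes within 10000 bases of a member having been examined, after the data were seen.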
